A study of Homo sapiens with 21 samples.

Results

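APP and 8 genes of the enzymes that cut it were followed in peak lists of open chromatin: APP itself, ADAM10 and ADAM17 (alpha-secretases), BACE1 (beta-secretase), and PSEN2, NCSTN, APH1A, APH1B and PSENEN (gamma-secretase). Peaks that shared at least 1 bp were merged over the 21 libraries into 166736 regions, and a region belonged to one of these genes when that gene had the nearest protein-coding span within 100 kb. This gave 64 regions for the 9 genes, of 19970 protein-coding genes in all. APP held 23 of the regions, ADAM10 and ADAM17 11 each, PSEN2 10, BACE1 3, NCSTN and APH1B 2 each, and APH1A and PSENEN 1 each. Where a region touched several gene spans it counted for each of them, which applied to 5 of the 64.

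APP is a membrane protein whose outer part is shed by successive cuts. ADAM10 and ADAM17 cut inside the amyloid-beta sequence, which prevents the peptide from forming, while BACE1 cuts at its start. The stub left in the membrane is then cut by gamma-secretase, a complex in which a presenilin carries the active site, nicastrin (NCSTN) and APH1 form the scaffold, and PEN-2 (PSENEN) completes and activates the complex. In microglia the same enzymes act on other membrane proteins: ADAM10 and ADAM17 are known to shed TREM2, and the sorting receptor encoded by SORL1 is known to bind APP and steer it away from the compartments where BACE1 acts.

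The libraries were ATAC-seq, in which a transposase tags accessible DNA, of microglia-like cells grown for 28 days from blood progenitors of the established line H9 (human embryonic stem cells), with 80000 sorted cells each. There were 7 lines with 3 libraries each: unedited WT, TREM2-R47H and TREM2-KO (an Alzheimer-associated variant and a loss of the lipid-sensing receptor TREM2), SORL1-A528T and SORL1-KO (a variant of SORL1, and a loss for which the protocols list R744X), a CD33 SNP line and an INPP5D SNP line. Per the labels' protocols all edits were homozygous and were made with CRISPR/Cas9 and a repair template in the same parent, which carries both alleles at the INPP5D site and was made homozygous for A. A CX3CR1-GFP reporter was also built into control, R47H and R744X cells, and whether those were used here is not stated. All lines shared the same cytokines, IL-34, TGF-beta and M-CSF, with CD200 and CX3CL1 in the last days. The genotype label of the libraries titled SORL1-A528T names TREM2-KO, so that line is grouped by title and each statement on it concerns the libraries so titled. Nothing says that the replicates were separate differentiations or that a line was more than 1 clone, so the spread between libraries may be technical.

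The lists held 39736 to 102891 peaks, from 56.5 to 67.4 Mtags (megatags) in replicate 1, 12.8 to 17.5 in replicate 2 and 32.6 to 52.9 in replicate 3. The shortest list was that of SORL1-A528T replicate 2. Gene-end regions, those at most 1 kb from a start or end of a gene span, were called at 9 to 10 of 10 microglia and macrophage marker genes in every library (AIF1 was the one missed in some) and at 0 of 4 pluripotency genes. Each library called 0 to 2 of 4 neuronal genes (SYT1 in 15 and SNAP25 in 17 libraries, RBFOX3 and DCX in none), 1 to 2 of 3 astrocyte genes (SLC1A3 in 21, GFAP in 2, AQP4 in none) and 1 to 2 of 4 mesenchymal genes (PDGFRB in 21, COL1A1 in 15, COL3A1 and DCN in none). Of erythroid, megakaryocyte and mast cell genes, ALAS2 was called in 21 libraries, ITGA2B in 15, and PF4, CPA3, FCER1A and MS4A2 in none. Their part in the results was not tested. The pools hold many cells, so fewer cells with an open region and a region less open in each cell cannot be told apart.

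The stretches of 250 bases before the gene starts are shown for the substrate and for 1 gene of each cutting activity, because all of these windows lay whole under called regions. The sequences and coordinates are those of RefSeq (GRCh38.p14), 5′ to 3′ on the gene's own strand. Capitals mark GGGCGG on either strand, the GC box bound by SP-family factors.
APP, chr21:26171129-26171378, minus strand: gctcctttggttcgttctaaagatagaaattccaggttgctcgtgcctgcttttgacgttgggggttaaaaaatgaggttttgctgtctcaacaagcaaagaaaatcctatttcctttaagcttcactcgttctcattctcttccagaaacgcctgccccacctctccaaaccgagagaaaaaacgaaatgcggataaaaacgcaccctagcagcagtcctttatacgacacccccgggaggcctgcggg
ADAM10, chr15:58749708-58749957, minus strand: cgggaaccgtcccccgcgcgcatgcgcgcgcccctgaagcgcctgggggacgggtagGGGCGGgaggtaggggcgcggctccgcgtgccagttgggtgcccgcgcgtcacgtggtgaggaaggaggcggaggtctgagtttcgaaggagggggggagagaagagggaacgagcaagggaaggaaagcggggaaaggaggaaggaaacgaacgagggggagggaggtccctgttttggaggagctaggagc
BACE1, chr11:117316257-117316506, minus strand: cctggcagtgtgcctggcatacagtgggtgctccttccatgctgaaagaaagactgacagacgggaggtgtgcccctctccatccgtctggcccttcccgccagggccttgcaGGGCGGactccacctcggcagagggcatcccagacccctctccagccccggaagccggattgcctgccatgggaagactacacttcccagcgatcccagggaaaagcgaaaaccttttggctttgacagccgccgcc
PSEN2, chr1:226870366-226870615, plus strand: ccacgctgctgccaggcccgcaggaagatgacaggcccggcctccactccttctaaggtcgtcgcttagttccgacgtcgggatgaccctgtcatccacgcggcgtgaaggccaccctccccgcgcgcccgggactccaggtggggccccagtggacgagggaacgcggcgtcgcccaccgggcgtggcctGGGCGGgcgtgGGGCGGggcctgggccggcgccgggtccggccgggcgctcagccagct
Starts were in the table for 8 of the 9 genes, all but APH1B, with 11 starts in all, as APP had 2 and BACE1 had 3. The APP window held no GGGCGG and the lowest GC share of the 8 outermost windows, 47.6%, against a median of 62.0% over 22131 promoters of protein-coding genes. The ADAM17 and PSEN2 windows had the highest, 75.6% and 75.2%, with 3 and 2 GC boxes. This motif lay in 6 of the 11 windows and in 53.7% of all promoters.

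The other motifs searched on both strands were CCGGAA (the ETS core), GAGGAA (a core bound by the myeloid factor PU.1), TGANTCA (AP-1), CCAAT (bound by NF-Y), CACGTG (the E-box), TATAAA (the TATA box), and the motifs of NRF1 and of interferon regulatory factors. Matches to different motifs may overlap. ADAM10 had 2 GAGGAA (in 23.7% of all promoters), 1 CACGTG (7.37%), 1 NRF1 motif (1.28%) and 1 GGGCGG. APP had 1 TATAAA before its outermost start, on the strand opposite to the gene, and 0 before its other start. This match was found in 9% of promoters. CCGGAA matched 3 times before NCSTN, where 2 of the matches overlap on opposite strands of the same stretch. It matched once each before APH1A, ADAM17 and BACE1, against 17.9% of promoters with any. APH1A held 2 CCAAT (32.7% of promoters), while TGANTCA (5.35%) and the interferon regulatory factor motif (2.71%) were in none of the 11 windows. A match describes these letters and is no evidence of binding.

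The chromatin at the gene starts was open in nearly every library and every line. The start regions of APP (chr21:26167704-26171526), ADAM10 (chr15:58748489-58750703), ADAM17 (chr2:9554626-9556839), PSEN2 (chr1:226869922-226871562) and PSENEN (chr19:35744365-35746250) were called in all 21 libraries. Those of NCSTN (chr1:160342684-160344013) and APH1A (chr1:150268013-150269858) were called in 20, and that of BACE1 (chr11:117314293-117316826) in 18. The APH1B gene-end region (chr15:63276627-63278196) was also called in 18. Thus 5 of the 8 genes with a listed start had it under a region called in all 21 libraries, where 46.2% of 15811 genes did, and 8 of 8 under a region called in at least 18, where 58.2% did. The start regions of NCSTN, APH1A and PSENEN touch the neighbouring genes COPA, C1orf54 with LOC124904414, and U2AF1L4 as well, so those calls cannot be given to 1 gene alone.

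**Figure D1:**
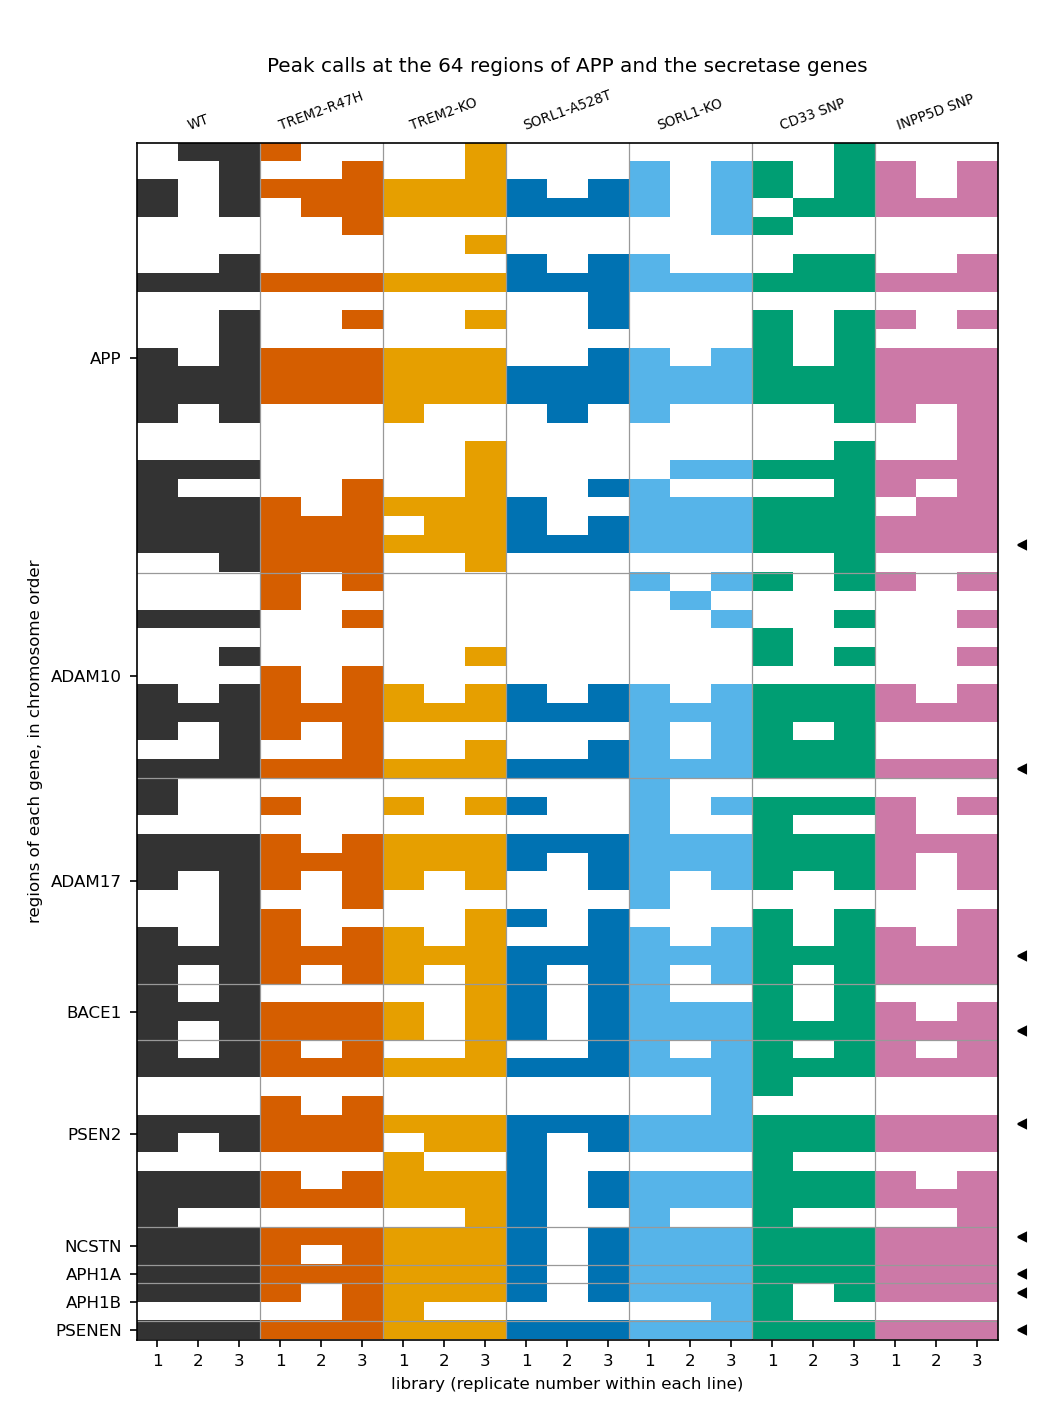
Calls at the 64 regions (rows, grouped by gene in chromosome order) in the 21 libraries (columns, 3 per line); a filled cell is a called region and arrowheads mark the gene-start regions, or gene-end region for APH1B. Start regions are filled almost throughout, replicate 2 columns are emptier, and SORL1-A528T replicate 2 has the fewest filled cells, 13 of 64.

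The calls missing at starts were all in the shallow replicate 2 libraries. SORL1-A528T replicate 2 lacked the starts of NCSTN, APH1A and BACE1 and the APH1B gene end. The BACE1 start was also missing in WT replicate 2 and TREM2-KO replicate 2, and the APH1B gene end in replicate 2 of TREM2-R47H and of CD33 SNP. At BACE1 only the outermost of the 3 listed starts lay under a region, and the inner 2 lay under none in any library, while both APP starts lay under the same region.

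The lists carry no peak height, but their order is not by position: in every library 94.0 to 99.8% of the peaks in the first 10% of the list lay in regions called in all 21 libraries, against 1.12 to 25.3% in the last 10%. The place of a peak in its list is therefore given as a percentile, with 100 for the first peak; percentiles of lists of different length show no change between libraries. The APP start stood at percentiles 96.1, 94.8 and 97.1 in WT, 96.7, 94.8 and 96.2 in TREM2-R47H, 92.3, 95.7 and 97.3 in TREM2-KO, 92.6, 83.7 and 93.6 in SORL1-A528T, 95.9, 95.5 and 95.5 in SORL1-KO, 95.4, 97.1 and 96.6 in CD33 SNP and 95, 94.7 and 97.7 in INPP5D SNP (replicates 1, 2 and 3). It stood above 92 in every list but that of SORL1-A528T replicate 2. The ADAM17 start had a median of 95.5, the PSENEN start 92.8, the ADAM10 start 89.5, the PSEN2 start 85.8, the APH1A start 83.3 and the NCSTN start 74.9.

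BACE1, the gene of the beta-secretase, had a lower median percentile (58.1) than the starts above, though not a lower place in every library. Its range was wider than that of APP, and that of the NCSTN start was wider still (4.71 to 85.6). The BACE1 values follow. The BACE1 start region was at 61.1 and 67.8 in WT replicates 1 and 3, at 84.0, 58.5 and 76.1 in TREM2-R47H, at 81.4 and 57.7 in TREM2-KO replicates 1 and 3, at 53.9 and 32.1 in SORL1-A528T replicates 1 and 3, at 81.9, 41.0 and 50.1 in SORL1-KO, at 82.2, 39.5 and 54.6 in CD33 SNP and at 68.3, 25.6 and 43.9 in INPP5D SNP. Replicate 1 stood highest in 6 of the 7 lines, all but WT, and the lines overlapped. List lengths differ by replicate number, so this order shows no change at the region. The peaks over it covered 501 to 2328 bp where called, while the peaks over the APP start covered 1912 to 3469 bp. APH1B, one of the interchangeable APH1 scaffolds, was similar to BACE1, with a median percentile of 54.1 and peaks of 501 to 1568 bp at its gene end.

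**Figure D2:**
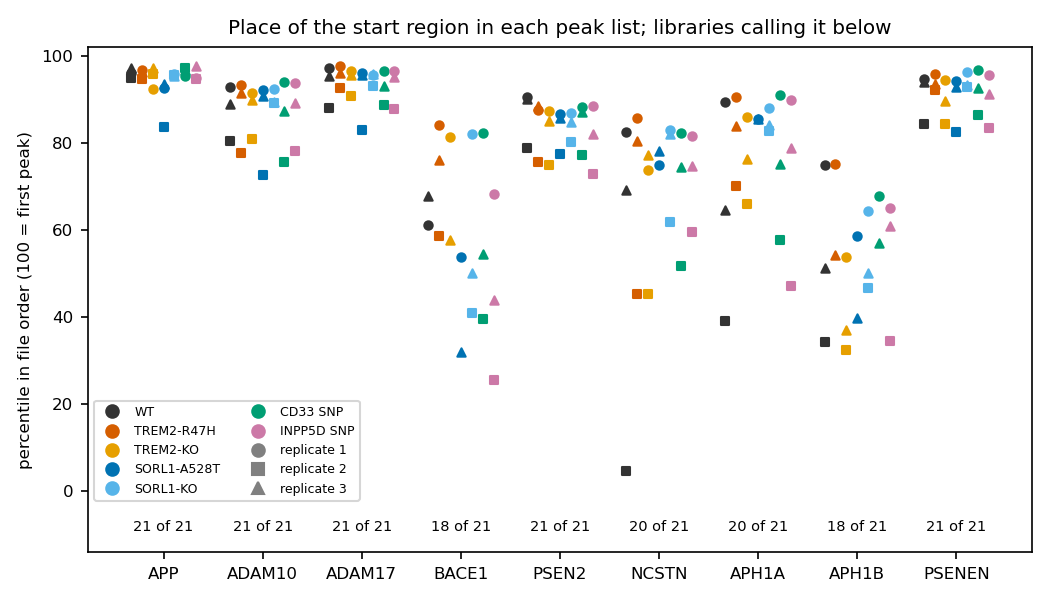
Percentile of the start region (gene-end region for APH1B) in the file order of each list that called it, by gene; colours are lines, shapes are replicate numbers, and the count below is the libraries calling it. APP, ADAM17 and PSENEN sit above 82 throughout, while BACE1, NCSTN, APH1A and APH1B spread widely, with replicate 2, where called, the lowest of its line.

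Away from the starts, calls were less regular. Of the 64 regions 10 were called in all 21 libraries (15.6%, as against 15.4% of all 166736), 11 in 18 to 20 (17.2% against 10.3%) and 4 in a single library (6.25% against 25.8%). Of the 9 gene-end regions 5 were called in every library (55.6%, against 47.4% of all such regions), of the 44 others inside the gene spans 4 (9.09% against 12.8%) and of the 11 outside them 1 (9.09% against 13%). The regions called in every library had a median width of 1570 bp and a median percentile of 90.1, and the regions called in 2 to 9 had 656 bp and 16.4. Exons and introns were not separated here.

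APP had 3 such constant regions inside the gene, far from its start. They lay at 203, 207 and 267 kb downstream of the start (chr21:25967069-25968567, chr21:25963803-25964745 and chr21:25903197-25904662), in the part of the gene span nearer to its far end. The region at 267 kb had percentiles of 83.7 to 96.4 and the region at 203 kb of 81.2 to 95.3, close to the APP start, and the region at 207 kb had 34.7 to 80.3. ADAM10 had 1, at 25.0 kb (chr15:58724259-58725191, 6.09 to 76.1). PSEN2 had 1 outside the gene, 42.0 kb from its span on the side of the start (chr1:226827424-226828627, 15.8 to 79.1), which was assigned by distance and may belong to another gene. ADAM17 had none besides its start, but regions inside the gene (chr2:9534972-9535783 and chr2:9537892-9539896) were called in 20 and 19 libraries. PSEN2 regions at 16.2, 13.7 and 4.31 kb were called in 20, 18 and 18, and the second NCSTN region, at 3.57 kb, in 19.

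**Figure D3:**
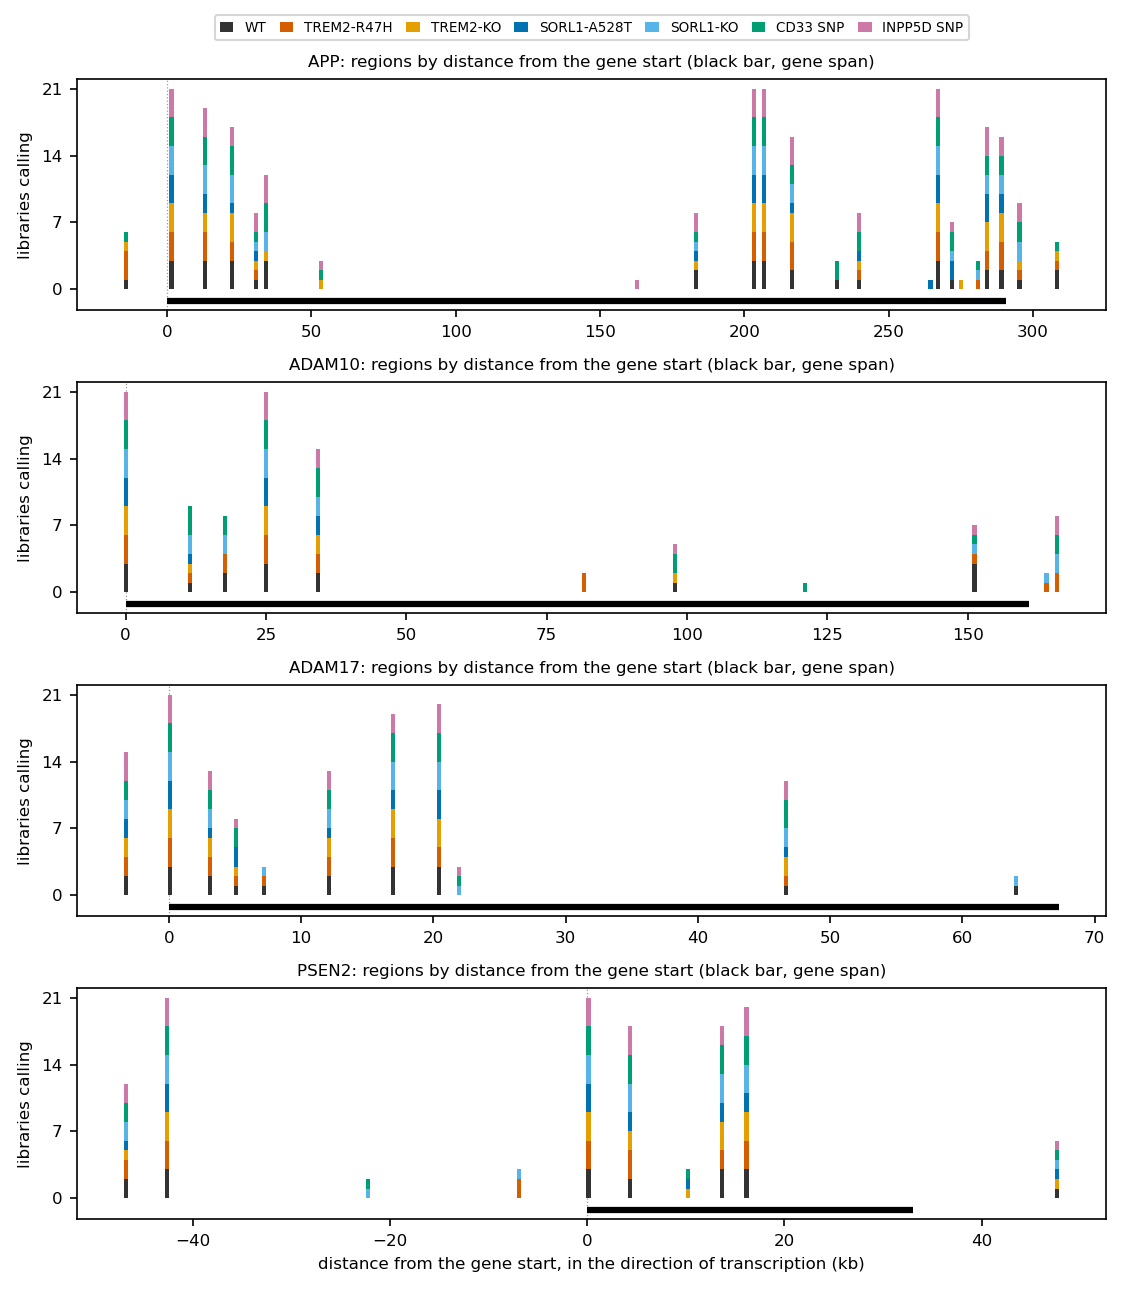
Number of libraries calling each region (bar height, stacked by line, at most 21) against its distance from the gene start in kb, for APP, ADAM10, ADAM17 and PSEN2; the black bar is the gene span. Full-height bars stand at each start, at 203, 207 and 267 kb in APP, at 25.0 kb in ADAM10 and before the start of PSEN2.

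Longer lists tended to call more of the regions. Of the 64, WT called 40, 24 and 46 (replicates 1, 2 and 3), TREM2-R47H 39, 22 and 44, TREM2-KO 32, 24 and 45, SORL1-A528T 33, 13 and 37, SORL1-KO 44, 25 and 42, CD33 SNP 48, 27 and 49 and INPP5D SNP 38, 24 and 45. Every replicate 2 library called fewer than replicates 1 and 3 of any line, and all lines overlapped. Over lines this made 159 of 448 possible calls in replicate 2 (35.5%, against 31.3% over all regions), 274 in replicate 1 (61.2% against 48.4%) and 308 in replicate 3 (68.8% against 53.4%). By line, SORL1-A528T, with the shortest list of each replicate number, held 83 of 192 possible calls (43.2%, against 36.3% over all regions) and CD33 SNP the most, 124 (64.6% against 49.1%). The other lines lay between them: TREM2-KO held 101 (52.6% against 46.6%), TREM2-R47H 105 (54.7% against 45.7%), INPP5D SNP 107 (55.7% against 42.9%), WT 110 (57.3% against 46.2%) and SORL1-KO 111 (57.8% against 43.6%). The lowest and the highest line were thus the same over the 64 regions and over all regions. Of the 64 regions 27 (42.2%) were never called in replicate 2, the same share as of all regions (42.4%).

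**Figure D4:**
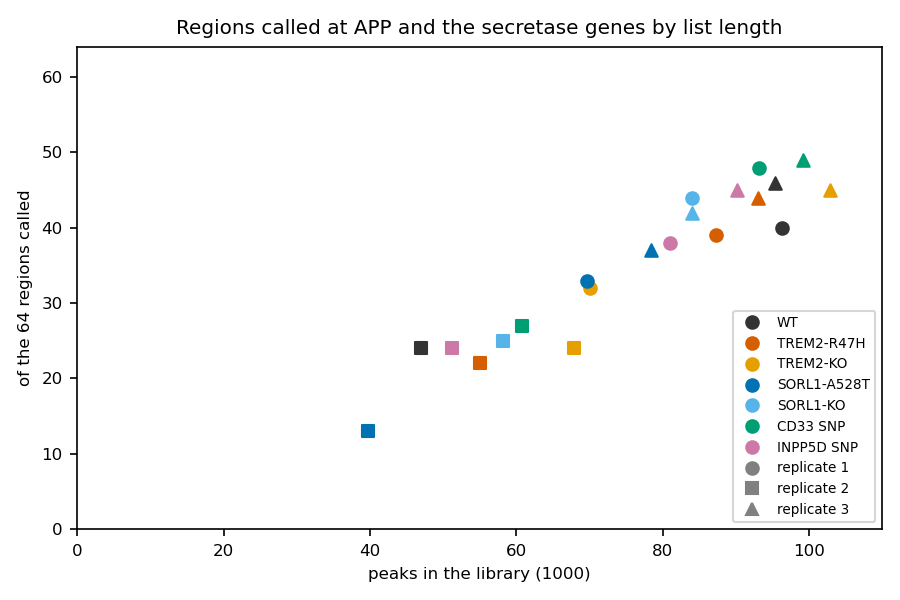
Of the 64 regions, the number called in each library (vertical axis) against the number of peaks in its list (in units of 1000); colours are lines and shapes are replicate numbers. The points climb together from 13 called in the shortest list to 49 in CD33 SNP replicate 3, and the lines are mixed along the way.

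To compare lines at unequal depth, every call (1 or 0) was set against its library's own rate at equally recurrent regions: the average call over regions found in as many libraries was subtracted. This depth-adjusted call, a fraction between -1 and 1, was averaged per gene for the 8732 genes with at least 5 regions and compared between lines with limma. APP, ADAM10, ADAM17 and PSEN2 could be tested; BACE1, NCSTN, APH1A, APH1B and PSENEN had too few regions. None of the 4 passed in any of 8 comparisons after Benjamini-Hochberg adjustment (of all genes 0% passed in each direction, except 0.0115% lower in INPP5D SNP against WT, which was 1 gene). At an unadjusted p below 0.05 no member was called in 7 comparisons, and over all genes the shares higher and lower were 4.9% and 3.53% in TREM2-R47H against WT, 1.44% and 2.07% in TREM2-KO, 1.83% and 2.26% in SORL1-A528T, 2.78% and 1.97% in SORL1-KO, 1.74% and 0.779% in CD33 SNP, 1.48% and 1.4% in INPP5D SNP, and 2.35% and 3.57% in SORL1-A528T against SORL1-KO. The median difference of the 4 lay between -0.0448 and 0.0709 over the 8 comparisons, and that of all genes between -0.0130 and 0.0220. An F test for any difference between lines gave ADAM10 an adjusted p of 0.755 by limma (F = 3.51, unadjusted p = 0.0155), APP 0.948, PSEN2 0.956 and ADAM17 0.976. No gene of the 8732 passed it (0%), and 6.08% had an unadjusted p below 0.05.

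ADAM10, the main alpha-secretase, had the largest F of the 4. Of its 11 regions TREM2-KO called 3, 2 and 5 (replicates 1, 2 and 3), SORL1-A528T 3, 2 and 4, INPP5D SNP 4, 2 and 6, WT 5, 3 and 7, SORL1-KO 6, 3 and 7, TREM2-R47H 7, 2 and 8 and CD33 SNP 8, 4 and 8. Depth-adjusted, TREM2-KO had -0.0837, -0.175 and -0.173, the TREM2-R47H libraries 0.127, -0.078 and 0.167, and WT -0.139, 0.0458 and 0.0608. The lowest TREM2-R47H library was close to the highest of TREM2-KO, and the WT libraries overlapped both lines. CD33 SNP was high in all 3 (0.155, 0.0719 and 0.107) and SORL1-A528T low in all 3 (-0.0782, -0.0451 and -0.0673). SORL1-KO had 0.0729, -0.00314 and 0.163, and INPP5D SNP -0.0832, -0.0602 and 0.0169.

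Between the 2 altered TREM2 lines, ADAM10 had the largest difference of the members. TREM2-R47H exceeded TREM2-KO by 0.216 (SE 0.0690, n = 3 and 3, limma, unadjusted p = 0.00532), from -0.144 ± 0.0522 (SD, n = 3) in TREM2-KO to 0.0718 ± 0.131 in TREM2-R47H. It did not pass the adjustment (limma adjusted p = 0.223; 0.071 to 0.785 over the alternatives). In this comparison the share of all genes with an unadjusted p below 0.05 was 9.15% in the higher direction and 4.65% in the lower, and 0% passed the adjustment. Libraries of these 2 lines with the same number deviated together, and with the replicate number as a block 59 genes passed and ADAM10 did not (limma adjusted p = 0.0884). Without TREM2-KO replicate 1, 107 genes passed and ADAM10 had 0.244 (limma adjusted p = 0.071).

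Of the 11 ADAM10 regions 5 had more calls in TREM2-R47H than in TREM2-KO, 1 had fewer and 5 had equal numbers. These counts rest on the same calls as the gene-level difference above and are no further support for it. The share of all regions in each direction was not counted. Over all genes the median difference in this comparison was 0.022. TREM2-R47H and TREM2-KO both called the ADAM10 start and the region at 25.0 kb in 3 of 3 libraries and the region at 34.2 kb in 2 of 3. The region at 17.7 kb (chr15:58731666-58732376) was called in 2 of 3 libraries of WT, TREM2-R47H, SORL1-KO and CD33 SNP and in 0 of 3 of TREM2-KO, SORL1-A528T and INPP5D SNP. The region 4.67 kb beyond the far end of the gene (chr15:58583388-58584137) was called in 2 of 3 libraries of TREM2-R47H, SORL1-KO, CD33 SNP and INPP5D SNP and in 0 of 3 of WT, TREM2-KO and SORL1-A528T. Neither was called in any replicate 2 library, and their median percentiles were 16.9 and 26.9. The region at 81.6 kb was called in 2 of 3 TREM2-R47H libraries (percentiles 10.5 and 7.48) and in no library of another line. The share of all regions called in a single line was not counted. The region with fewer calls, at 97.9 kb, was called in 0 of 3 libraries of TREM2-R47H and 1 of 3 of TREM2-KO. The regions at 17.7, 81.6 and 97.9 kb and the region 4.67 kb beyond the gene are named for their values and not by the rule.

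Against WT, ADAM10 also had the largest member difference in 4 of 6 lines. It was -0.133 (SE 0.0690, limma adjusted p = 0.999) in TREM2-KO, whose 3 libraries lay below the WT mean but overlapped the WT libraries. It was 0.122 (SE 0.0690, limma adjusted p = 1.00) in CD33 SNP, and without WT replicate 1 it was 0.0547. TREM2-R47H differed from WT by 0.0826 (SE 0.0690, limma adjusted p = 0.740), which was 0.0152 without WT replicate 1 and turned to -0.0059 without replicate 1 of every line. SORL1-A528T differed from WT by -0.0527 (SE 0.0690, limma adjusted p = 0.983), with -0.115 without WT replicate 1, -0.0282 without WT replicate 2 and -0.0174 without WT replicate 3. SORL1-A528T lay below SORL1-KO by 0.141 (difference -0.141, SE 0.0690, limma adjusted p = 0.851). The comparisons with WT share its libraries.

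**Figure D5:**
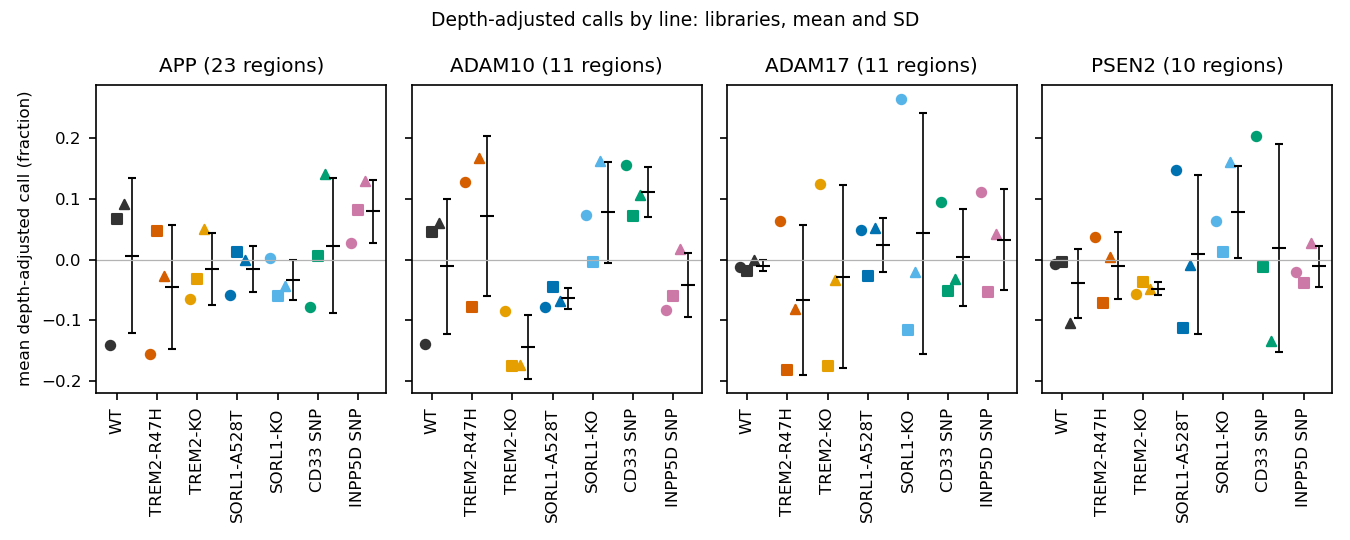
Mean depth-adjusted call (fraction; 0 is the call rate of regions of like recurrence in that library) at APP, ADAM10, ADAM17 and PSEN2 by line; shapes are replicates 1 to 3 (circle, square, triangle), and bars are mean and SD (n = 3). At each of the genes, ADAM10 included, most lines straddle 0. Among the lines that do not are TREM2-KO (-0.175 to -0.0837) and CD33 SNP (0.0719 to 0.155) at ADAM10. SORL1-KO at PSEN2 (0.0124 to 0.161) and INPP5D SNP at APP (0.0269 to 0.13) are others. TREM2-KO and CD33 SNP were not compared with each other.

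APP itself, the substrate, passed the threshold in no comparison of lines. Depth-adjusted, its means ran from -0.045 ± 0.102 (SD, n = 3) in TREM2-R47H through -0.0337 ± 0.0325 in SORL1-KO, -0.0155 ± 0.0595 in TREM2-KO, -0.0149 ± 0.0379 in SORL1-A528T, 0.00633 ± 0.127 in WT and 0.0232 ± 0.111 in CD33 SNP to 0.0796 ± 0.0514 in INPP5D SNP. Neighbours in this order overlapped. Further apart, the INPP5D SNP libraries (0.0269 to 0.13) all lay above those of SORL1-KO (at most 0.0024) and SORL1-A528T (at most 0.0132). Neither pair was among the comparisons, and the share of all genes with such a separation was not counted. The largest member difference in INPP5D SNP against WT was that of APP, 0.0732 (SE 0.0707, limma adjusted p = 1.00, with 3 of 3 libraries above the WT mean and the libraries overlapping), and without WT replicate 1 it was -0.0007. In the SORL1 lines, whose receptor handles the APP protein, APP differed from WT by -0.0212 in SORL1-A528T and -0.0400 in SORL1-KO (SE 0.0707 each, limma adjusted p = 0.995 and 0.967). Above the WT mean lay 1 of 3 SORL1-A528T and 0 of 3 SORL1-KO libraries, and both lines overlapped WT. The SE is larger than either difference, so these values do not show that the lines are alike.

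Of the 23 APP regions, 1 was called in 3 of 3 libraries of WT and 0 of 3 of another line. It lay 34.2 kb inside the gene (chr21:26136562-26137219) and was called in 3 of 3 libraries of WT, CD33 SNP and INPP5D SNP, 2 of 3 of SORL1-KO, 1 of 3 of TREM2-KO and 0 of 3 of TREM2-R47H and SORL1-A528T. In WT it stood at percentiles 5.59, 11.4 and 23, in the weak part of each list. A region 13.8 kb outside the APP span, beyond its start (chr21:26184923-26185642) was called in 3 of 3 TREM2-R47H libraries, 1 of 3 of WT, TREM2-KO and CD33 SNP and 0 of 3 of the others, at percentiles of 0.407 to 1.94 in TREM2-R47H; it is named here for its values and not by the rule. A region 151 kb inside ADAM10 (chr15:58598043-58598951) was called in 3 of 3 WT libraries (percentiles 35.0, 6.09 and 39.8), in 0 of 3 of TREM2-KO and SORL1-A528T and in 1 of 3 of each other line.

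These 2 regions made up all of the all-or-none losses among the 64. Against WT there was 1 in TREM2-R47H (0.303% of all regions were lost), 1 in TREM2-KO (0.0576%) and 2 in SORL1-A528T (0.487%). The SORL1-KO, CD33 SNP and INPP5D SNP lines lost 0 (0.233%, 0.0414% and 0.142%). No member region was gained in the 6 comparisons with WT (0.127%, 0.0480%, 0.0114%, 0.0624%, 0.0954% and 0.0276% of all regions, in the order TREM2-R47H, TREM2-KO, SORL1-A528T, SORL1-KO, CD33 SNP and INPP5D SNP). Between TREM2-R47H and TREM2-KO (0.345% gained, 0.288% lost) and between SORL1-A528T and SORL1-KO (0.112% gained, 1.10% lost) there was none. There is no test for 1 region, as 3 against 3 libraries cannot go below p = 0.1 in an exact permutation test. In the first 39711 peaks of each list, the length of the shortest, no WT library held either region, so neither counted as lost there. At that length 1 member region, inside ADAM17 (chr2:9534972-9535783), was held by 3 of 3 SORL1-A528T and 0 of 3 WT libraries, and none in the other comparisons. All 3 WT libraries call it in their full lists, so this is a difference in place in lists of unequal length and not a gained region. At that length 0.264% and 0.35% of all regions were held by 3 of 3 libraries of one line and 0 of 3 of the other, in either direction, in TREM2-R47H against WT, 0.0648% and 0.0768% in TREM2-KO, 0.0774% and 0.234% in SORL1-A528T, 0.139% and 0.16% in SORL1-KO, 0.0642% and 0.0372% in CD33 SNP, 0.0684% and 0.0654% in INPP5D SNP, 0.349% and 0.353% in TREM2-R47H against TREM2-KO, and 0.277% and 0.5% in SORL1-A528T against SORL1-KO.

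ADAM17, the second alpha-secretase and the enzyme that releases TNF, showed no order of lines. Of its 11 regions WT called 8, 3 and 8, TREM2-R47H 8, 2 and 7, TREM2-KO 7, 3 and 8, SORL1-A528T 6, 2 and 7, SORL1-KO 10, 3 and 7, CD33 SNP 9, 4 and 8 and INPP5D SNP 8, 3 and 8. Its differences from WT lay between -0.0563 in TREM2-R47H and 0.0534 in SORL1-KO (SE 0.0892 each). Replicate 1 was above replicate 2 in all 7 lines on the depth-adjusted scale, from 0.265 to -0.115 in SORL1-KO and from -0.0117 to -0.0185 in WT, and the part of depth in this was not tested.

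Of the gamma-secretase genes only PSEN2, a presenilin with the active site, could be tested. Of its 10 regions WT called 7, 4 and 6, TREM2-R47H 7, 4 and 7, TREM2-KO 5, 5 and 7, SORL1-A528T 7, 2 and 6, SORL1-KO 7, 5 and 8, CD33 SNP 9, 5 and 6 and INPP5D SNP 6, 4 and 7. In SORL1-KO its depth-adjusted call was 0.0789 ± 0.0756 (SD, n = 3) against -0.0383 ± 0.0565 in WT, the largest member difference in that comparison at 0.117 (SE 0.0762, limma adjusted p = 0.938). Without SORL1-KO replicate 3 it was 0.0717, and with lists of equal length it turned to -0.0742. The other subunits had too few regions to test: NCSTN held 39 of 42 possible calls, APH1A 20 of 21, PSENEN 21 of 21 and APH1B 22 of 42. Over all regions 44.4% of possible calls were made. The second APH1B region, inside the gene, had 4 calls, all in replicate 1 or 3, and was missed in the other deep libraries too.

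BACE1 held 43 of 63 possible calls (68.25%, against 44.4% over all regions), 7 of 9 in WT, SORL1-KO and CD33 SNP, 6 of 9 in TREM2-R47H and SORL1-A528T and 5 of 9 in TREM2-KO and INPP5D SNP. Over all regions the share by line ran from 36.3% in SORL1-A528T to 49.1% in CD33 SNP. Replicate 2 of TREM2-KO and of SORL1-A528T called 0 of its 3 regions, and the lists of these libraries were the longest (67861 peaks) and the shortest of replicate 2. These libraries called 39.3% and 23.1% of all regions, and their depth-adjusted calls at BACE1 were -0.533 and -0.159. By line the depth-adjusted mean ran from -0.140 ± 0.344 (SD, n = 3) in TREM2-KO to 0.147 ± 0.269 in SORL1-A528T, with WT at 0.0885 ± 0.0464. The region at 13.9 kb inside BACE1 (chr11:117302035-117302736) was called in 2 of 3 libraries of WT, SORL1-A528T and CD33 SNP, 1 of 3 of TREM2-KO and SORL1-KO and 0 of 3 of TREM2-R47H and INPP5D SNP. With 3 regions these calls give no ranking of lines.

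Across the 21 libraries the genes whose depth-adjusted calls were most like those of APP were DEUP1 (Pearson r = 0.849, 8 regions), ZNF407 (0.836, 30 regions) and DGKK (0.766, 5 regions), out of 8732 genes ranked. Among the members the correlation with APP was -0.00957 for ADAM10, -0.140 for ADAM17 and -0.492 for PSEN2. The points share libraries and their depth, so these values are descriptions.

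The wider pathway was described with 41 other genes: the APP family, other sheddases, regulators of ADAM10 and ADAM17, sorting proteins and adaptors, amyloid-degrading peptidases and the NOTCH receptors, which are gamma-secretase substrates. Gene-end regions were called in all 21 libraries at APLP2, the sheddase gene ADAM9, 4 of 9 regulators (TSPAN5, TSPAN14, TSPAN17 and TSPAN33, tetraspanins that guide ADAM10), 9 of 18 sorting and adaptor genes, 0 of 5 amyloid-degrading peptidases and NOTCH4. This made 16 of 41 genes (39.0%), where 43.7% of the 19970 protein-coding genes had one. APLP1 was called in 19 libraries, and the peptidase genes IDE and THOP1 in 20 and ECE1 in 9. NOTCH1 was called in 20 and NOTCH2 in 19. No gene-end region was found at MME, the gene of neprilysin, at ECE2, TIMP3, SORCS1 or NOTCH3. Of the 29 genes with at least 5 regions, 0 were higher and 0 lower in any of the 8 comparisons after adjustment (limma).

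At an unadjusted p below 0.05 (limma), 2 of the 29 were higher in TREM2-R47H than in WT (4.90% of all genes): BACE2 with 0.196 (SE 0.0887, limma adjusted p = 0.561) and NOTCH3 with 0.217 (SE 0.104). In SORL1-KO against WT 2 were higher (2.78% of all genes), APLP2 with 0.154 (SE 0.0602) and the sorting adaptor GGA1 with 0.327 (SE 0.134), each with a limma adjusted p of 0.938. Between TREM2-R47H and TREM2-KO 4 were higher (9.15%), ADAM9, APBA2, BACE2 and ECE1 at 0.185 to 0.296, and the retromer gene VPS35 was lower at -0.202 (4.65%). RTN4 was lower in SORL1-A528T than in SORL1-KO at -0.153 (3.57%), and none of the 29 reached it in the other 4 comparisons. The median difference over the 29 lay between -0.0393 in SORL1-A528T against SORL1-KO and 0.0602 in SORL1-KO against WT, where over all genes it was -0.00578 and 0.00556.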

How the data were processed

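Peak lists of 21 ATAC-seq libraries were used. The authors deposited for each library a list of peak positions with a score that is 1 for every peak. Per the file headers, HOMER findPeaks in histone style called peaks per library without a control, at a minimum of 4-fold over the local tags within 10000 bp. Per the submitters' processing notes, cutadapt 1.18, STAR 2.7, HOMER 4.10 and DESeq2 were used; the role of DESeq2, the genome build and any shift for the transposase are not given in the sources used here. Genes came from RefSeq tables of GRCh38.p14: of 22131 listed starts 42.9% fell in regions that every library called, as did 2.37% and 2.52% of positions 10 kb to either side.

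Peaks on chromosomes Y and M (0.0821%) were left out, and 1 marker gene is not reported here. Depth-adjusted calls, averaged per gene, were compared with limma 3.58.1 (R 4.3.3) over all libraries, with Benjamini-Hochberg adjustment over 8732 genes per comparison at 0.05. The pipeline was also run on simulated calls drawn without shared replicate deviations, so that run gives no measure of power for these data. Named were all 9 genes, for each comparison the member with the largest difference, the start regions, the all-or-none regions and regions called in most libraries. Some other regions of APP, ADAM10, BACE1 and APH1B were named for their values and not by this rule. The genes, lists and tests were chosen with earlier results of these data known. Alternatives were a cover of 50%, regions called in at least 2 libraries, 10 regions per gene, a distance of 10 kb, equal list lengths, the replicate number as a block and left-out libraries; leaving out single libraries, and the cover and list length settings for all-or-none regions, were added after seeing the data. File order was used as a stand-in for strength: the median peak width was 1400 to 2080 bp in the first 10% of a list and 501 bp in the last 10%.

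Same-numbered libraries deviated together in TREM2-R47H and TREM2-KO (correlations over genes of 0.534, 0.292 and 0.186, all over 0.1). In the other 7 comparisons at least 1 of the 3 pairs did not reach 0.1. Still, 14 of the 24 pairs were over 0.1, and the replicate 1 pair was so in every comparison (0.107 to 0.534). No pairing was assumed in the main fit, so such shared deviations stayed in its spread.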

Additional observations from a re-analysis of the deposited data

How the results depend on the processing

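Across the alternatives no member passed the threshold in any of the 8 comparisons or in the test for any line (lowest adjusted p 0.071 and 0.287, limma). The largest member difference kept its direction except in TREM2-R47H against WT without replicate 1 (ADAM10, -0.0059), in INPP5D SNP against WT without WT replicate 1 (APP, -0.0007) and in SORL1-KO against WT with lists of equal length (PSEN2, -0.0742); the cause was not tested. With equal list lengths ADAM10 had fewer than 5 regions and no value. When single libraries or replicate numbers were left out, the difference from WT ranged from -0.0059 to 0.181 in TREM2-R47H, -0.242 to -0.0891 in TREM2-KO, -0.116 to -0.0174 in SORL1-A528T, 0.0508 to 0.168 in SORL1-KO, 0.0454 to 0.169 in CD33 SNP and -0.0007 to 0.116 in INPP5D SNP. It ranged from 0.158 to 0.289 in TREM2-R47H against TREM2-KO and -0.201 to -0.1 in SORL1-A528T against SORL1-KO. With a cover of 50% it was 0.0353 in TREM2-R47H, -0.0822 in SORL1-A528T and 0.0656 in SORL1-KO against WT, and in INPP5D SNP it was 0.118 within 10 kb and 0.0358 with equal list lengths.

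Counts of genes past the threshold over all genes (limma) moved as follows. In INPP5D SNP against WT the 1 gene became 0 with a cover of 50%, with 10 regions per gene, within 10 kb and with equal list lengths, and 0 to 1 when libraries were left out. In TREM2-R47H against TREM2-KO 0 became 13 with 10 regions per gene, 2 with equal list lengths and 59 with the replicate block, and 0 to 107 with libraries left out. In SORL1-A528T against SORL1-KO 0 became 4, 1 and 8 under the same settings (10 regions, equal lengths, replicate block). Equal list lengths gave 1 gene in TREM2-R47H against WT, and leaving out libraries gave 0 to 1 in SORL1-KO against WT. The test for any line gave 1 gene with 10 regions per gene and 1 with equal list lengths. The replicate block changed no call for a member. With lists of equal length the all-or-none regions among the members, counted over the 8 comparisons, went from 4 to 1; the 1 is a region inside ADAM17 that all WT and SORL1-A528T libraries call in their full lists. The number of regions per gene and the tags of replicate 2 limit what can be seen at BACE1, APH1B and the weak regions of ADAM10.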
